A study of Homo sapiens with 4 samples.

Results

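The microtubule cytoskeleton of H1299 cells was examined through 42 genes, which encode 10 alpha- and beta-tubulins, 4 gamma-, delta- and epsilon-tubulins, 5 gamma-tubulin complex proteins, 5 tubulin-folding cofactors, 9 lattice-binding microtubule-associated proteins (MAPs), 6 plus-end proteins and 3 destabilising or severing proteins. The genes were taken as a fixed set of microtubule genes because inorganic mercury binds the thiols of tubulin, and the rule itself uses no expression value. They correspond to 492 of the 227368 listed transcripts. Of these, 117 had a read in any column, and 47 transcripts of 24 genes could be compared between the groups. H1299 is an established cell line from a human lung carcinoma of the non-small cell type, and its poly-A RNA was sequenced after 48 h. The group labelled HgCl2 received 5 μM mercury chloride, and the control group labelled EtOH received the solvent, 0.6% EtOH according to the methods. The treatment protocol in the labels gives 5 μM HgCl2 for all 4 samples and so does not separate the groups, while the titles do.

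Microtubules are hollow polymers of alpha- and beta-tubulin dimers. The dimers are folded with the help of cofactors TBCA to TBCE, polymers are started by gamma-tubulin in a ring with the TUBGCP proteins, and growth at the plus end is steered by EB proteins (MAPRE genes), CLASPs and CLIP1. Stathmin (STMN1) holds free dimers and favours shrinkage, and katanin (KATNA1) and spastin (SPAST) cut the lattice. Mercury ions are known to bind cysteines of tubulin and to block its assembly, and tubulin messages are destabilised when free dimers accumulate, which is read by TTC5 at the ribosome.

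EtOH columns held 5051958 and 5053120 counted reads in total and HgCl2 columns 4722772 and 4720978, of which the member genes took between 0.252% and 0.266%. The 2 columns of a group differed by less than sampling noise. The variance of their difference was 0.505 of the Poisson variance over 12382 transcripts in EtOH (95% interval 0.492 to 0.517) and 0.516 over 10611 transcripts in HgCl2 (0.503 to 0.530). Over 30 member transcripts it was 0.462 (0.295 to 0.826) and 0.537 (0.343 to 0.959). The study describes its libraries as biological replicates, and the labels list 2 samples a group. That replication was set aside here because the columns lie closer together than repeated draws from 1 library would. Each group was therefore counted as 1 sample, no test of the treatment was possible, and transcripts are described as past 2-fold or not, with intervals that cover counting error only. Reads from mitochondrial genes made up 24.8% of counts in both EtOH columns and 17.9% in both HgCl2 columns, and the part of this shift in the ratios was not tested. Of 7 markers listed for the line 6 had reads, led by HMGA2, whose 4 columns held 34704, 35108, 94083 and 93809 counts, whereas EPCAM was at 0. Summed over the list, the marker counts were 37520 and 38018 in EtOH and 97865 and 97667 in HgCl2, a sum carried by HMGA2. LIN28B went the same way (2107 and 2187 against 3258 and 3310), VIM (620 and 628 against 501 and 511), KRT8 (53 and 58 against 4 and 4) and CDH2 (13 and 13 against 1 and 2) had lower counts in HgCl2, and KRT18 had 23 and 24 against 18 and 31. Of 10 markers of other cell types 7 were at 0, PTPRC, CD3E, SFTPC and HBB among them, and the sum of the list was 20 and 24 in EtOH and 4 and 6 in HgCl2.

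The counts are per transcript, and the transcript that was counted was often not the main coding one. For each member transcript, the exonic bases that no other listed transcript covers on the same strand are called its own bases here. Of 198 member transcripts with 0 own bases, 2 had a count (1.01%). Of 148 whose longest run of own bases was under 150, 32 had a count (21.6%). Of 146 with a run of 150 or more, 83 had a count (56.8%), and these 83 held 96.5% of all member counts. Among protein-coding transcripts the numbers were 0 of 115, 14 of 89 and 26 of 49. The methods name a library kit that does not mark strand, while the results call the sequencing directional, and the strand setting of the counting is not given in the sources used here. Of 1485 transcripts that are fully covered when both strands are counted but have a run of 150 or more own bases on their own strand, 23.6% had a count, against 1.10% of all listed transcripts with 0 own bases. GAPDH and ACTB, which nearly every cell uses, were almost without counts. GAPDH had 1 count and ACTB 3 in the first EtOH column, and both were at 0 in the other columns. A low or absent count in this table is therefore no measure of a gene's total message.

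**Figure D1:**
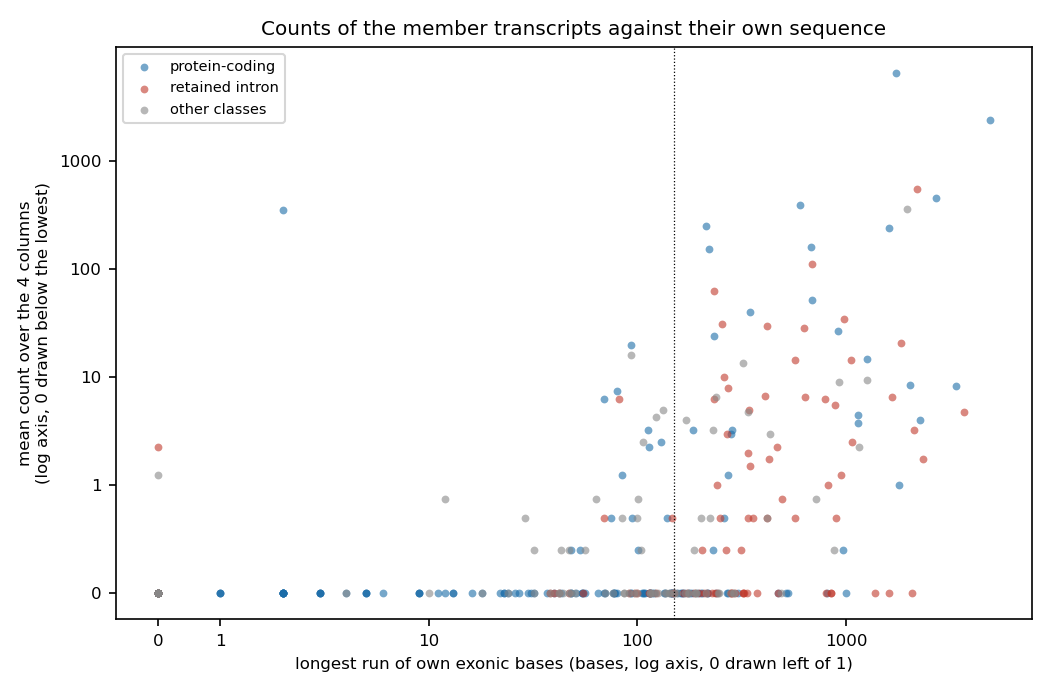
Mean count over the 4 columns against the longest run of own exonic bases for the 492 member transcripts (both axes logarithmic, points at 0 drawn at the edge). Blue points are protein-coding, red points retained-intron and grey points other transcripts, and the dotted line marks 150 bases. Of the 117 transcripts with a count, 83 lie at or to the right of the line and 34 to its left, most counted among them TUBA1A-202 with 2 own bases and 329 counts or more in every column.

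Retained-intron transcripts, which are listed as non-coding and keep an intron of the gene, were found among the members past 2-fold on both sides. The stretches below come from 5 on the higher side. They are shown because they are the sequence whose reads tell these transcripts from the spliced messages. They were read from the GRCh38 genome in 5′ to 3′ direction of the gene, with own bases in capitals and bases shared with other listed transcripts in lower case.
TUBE1-207: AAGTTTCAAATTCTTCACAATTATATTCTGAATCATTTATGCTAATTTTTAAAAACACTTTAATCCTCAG
TUBG2-203: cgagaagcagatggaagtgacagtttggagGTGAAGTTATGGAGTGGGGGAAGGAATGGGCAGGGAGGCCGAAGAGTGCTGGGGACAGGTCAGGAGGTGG
TUBGCP5-203: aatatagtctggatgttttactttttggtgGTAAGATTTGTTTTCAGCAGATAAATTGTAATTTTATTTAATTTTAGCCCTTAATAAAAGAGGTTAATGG
TUBGCP2-207: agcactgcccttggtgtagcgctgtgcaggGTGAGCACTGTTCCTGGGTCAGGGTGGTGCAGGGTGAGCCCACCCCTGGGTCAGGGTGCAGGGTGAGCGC
CLASP1-209: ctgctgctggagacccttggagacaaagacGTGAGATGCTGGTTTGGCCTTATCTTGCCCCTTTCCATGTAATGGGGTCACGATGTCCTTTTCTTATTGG
In TUBG2-203, TUBGCP5-203, TUBGCP2-207 and CLASP1-209 the own bases begin with GT directly after the shared exon, the bases with which most introns open. The stretch of TUBE1-207 ends with AG, the bases with which most introns close, next to the exon that follows. The positions are chr6:112076510-112076579 on the minus strand for TUBE1-207, chr17:42660678-42660777 on the plus strand for TUBG2-203, chr15:23005982-23006081 on the minus strand for TUBGCP5-203, chr10:133302689-133302788 on the minus strand for TUBGCP2-207 and chr2:121365024-121365123 on the minus strand for CLASP1-209. All 5 stretches lie inside an exon of their own transcript, and the own bases are exonic in no other listed transcript of that strand.

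Among the 47 member transcripts compared, 16 were at least 2-fold higher in HgCl2 (34.0%) and 12 at least 2-fold lower (25.5%), against 18.7% and 29.2% of all 16462 transcripts compared. Comparison required a mean FPKM above 1 in either group. A transcript near 0 in EtOH could therefore enter only through HgCl2. The higher transcripts of TUBGCP2, MAP7D3, CLASP1 and KATNA1 entered in this way, and 1 of CLIP1. Transcripts at 0 in HgCl2 entered only through EtOH, and the background has the same filter. With 10 counts or more required in every column, 26.1% of members were higher and 8.70% lower, against 11.1% and 12.7% of all transcripts. The median log2 ratio of HgCl2 over EtOH was -0.15 for the members and also -0.15 for all transcripts. Taking 1 transcript a gene, the one with the highest mean count, 9 of 24 were past 2-fold higher and 3 lower, with a median of 0.05. The same choice was not made for all genes, so these counts have no like background. The median count of these 24 was 43.1, against 22.25 for all transcripts, and the shares past 2-fold vary with count. The members' counts are mostly low, so they were also read against transcripts of like counts. Of 29 member transcripts with a mean under 30 counts, 8 were higher and 11 lower, where the background was 21.1% and 44.1%. Of 9 with a mean of 30 to under 200 counts, 6 were higher and 1 lower, where the background was 22.3% and 14.2%, and their median log2 ratio was 1.29 against 0.21 for all transcripts in that range. Of 9 with 200 or more counts, 2 were higher and 0 lower, where the background was 4.65% and 2.03%, and both were TUBE1 transcripts. By transcript class, 9 of 20 retained-intron members were higher and 5 lower (background 24.5% and 31.5%), and 3 of 16 protein-coding members were higher and 4 lower (background 13.1% and 20.4%).

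**Figure D2:**
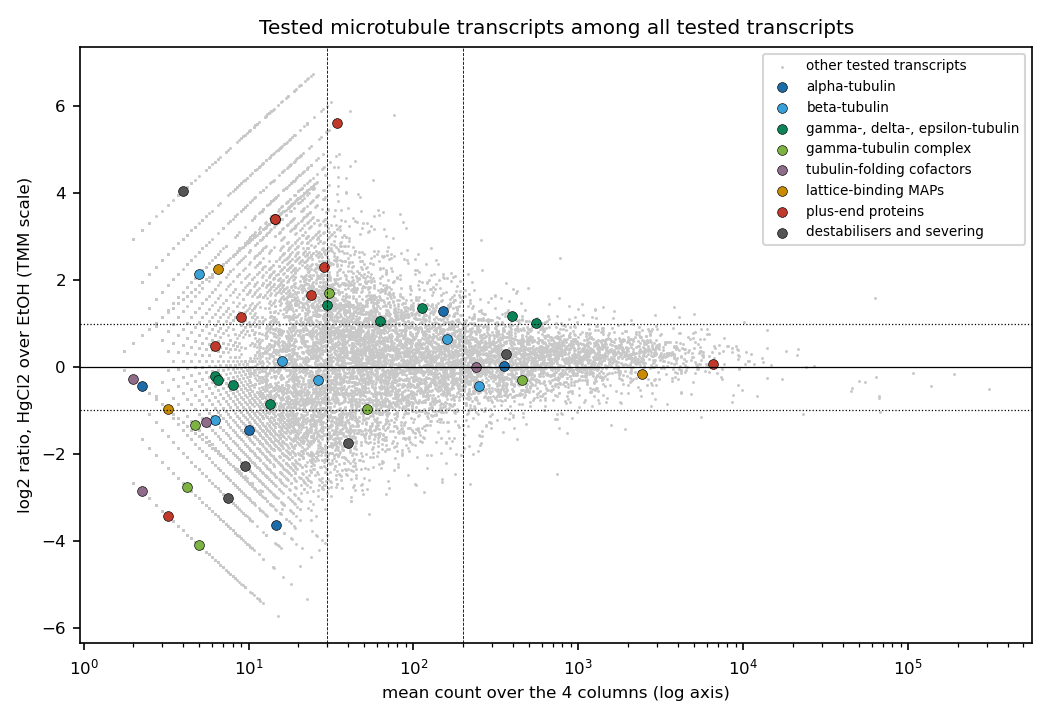
Log2 ratio of HgCl2 over EtOH on the TMM scale against the mean count over the 4 columns (log axis) for all 16462 transcripts compared (grey) and the 47 member transcripts (coloured by role). Dotted lines mark 2-fold and dashed lines 30 and 200 counts. The members with 200 or more counts lie between -0.43 and 1.17, and the wide ratios are found at low counts. TUBGCP2-207 lies under CLIP1-208 at 3.42.

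Alpha-tubulin was seen through TUBA1A, TUBA1B and TUBA1C, while TUBA4A had no count in any column. Over the alpha-tubulin transcripts, 1 of 5 was higher, 2 were lower, and the median log2 ratio was -0.44. The shares of all transcripts compared were 18.7% higher and 29.2% lower, and 21.1% and 44.1% of those with means under 30 counts. The most counted one, TUBA1A-202, a coding transcript of an alpha-tubulin best known from neurons, had 371 and 366 counts in EtOH and 329 and 351 in HgCl2. Its groups lay close together, with a log2 ratio of 0.03 (95% interval -0.19 to 0.24) whose sign depends on the scaling. This transcript has only 2 own bases in the annotation used here. Alpha-tubulin genes are near-identical copies, and whether its counts include reads of the others was not tested. TUBA1B had 1 transcript to compare, the retained-intron TUBA1B-207, with 12 and 18 counts in EtOH and 3 and 7 in HgCl2 (-1.44, -3.26 to 0.09). Its coding transcripts have at most 4 own bases and had no count in any column. Without the second HgCl2 column the ratio of TUBA1B-207 was -2.18.

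TUBA1C, another general alpha-tubulin, gave 2 coding transcripts that went apart. TUBA1C-204 had 93 and 96 counts in EtOH and 210 and 209 in HgCl2, a log2 ratio of 1.29 (0.93 to 1.66). TUBA1C-201, named here after its values were seen because it has under 30 counts, had 24 and 31 counts in EtOH and 2 in each HgCl2 column (-3.64, -6.75 to -1.65). The shorter TUBA1C-204 therefore made up 77.5% of the gene's counts in EtOH (69.0 to 84.5%) and 99.1% in HgCl2 (96.6 to 99.9%). Summed over the gene, the counts were 117 and 127 in EtOH and 212 and 211 in HgCl2, a log2 ratio of 0.94 (0.61 to 1.27) that does not reach 2-fold.

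Beta-tubulin was seen through TUBB, TUBB2A and TUBB6. TUBB2B and TUBB4B had no count, and TUBB3 had 1 count in each EtOH column. Of the 6 transcripts compared, 1 was higher and 1 lower (all transcripts 18.7% and 29.2%), with a median log2 ratio of -0.08. TUBB-205, from the main general beta-tubulin gene, had 287 and 310 counts in EtOH and 190 and 210 in HgCl2 (-0.43, -0.70 to -0.17). TUBB6-213 went the other way, with 134 and 133 counts in EtOH and 193 and 183 in HgCl2 (0.64, 0.31 to 0.97). The groups did not overlap in either, as in 92.4% of all transcripts with 200 or more counts and 89.9% of those with 30 to under 200, and neither ratio reached 2-fold. Of the 681 own bases of TUBB6-213 all but 43 are also covered by a gene on the opposite strand. If strand was not used in counting, reads of the partner cannot be told apart there. TUBB2A-201 had 28 and 33 counts in EtOH and 25 and 20 in HgCl2 (-0.30, -1.15 to 0.54). Over alpha- and beta-tubulin together the counts were 983 and 1027 in EtOH and 981 and 1010 in HgCl2.

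The minor tubulins gave 9 transcripts to compare, of which 5 were higher and 0 lower, with a median log2 ratio of 1.01, where all transcripts gave 18.7% and 29.2%. Of these 5, 4 were transcripts of TUBE1. TUBE1 encodes epsilon-tubulin, a protein of the centriole. Its most counted transcript was the retained-intron TUBE1-207, with 394 and 388 counts in EtOH and 704 and 723 in HgCl2, a log2 ratio of 1.01 (0.83 to 1.19). The coding TUBE1-202 had 251 and 268 counts in EtOH and 532 and 526 in HgCl2 (1.17, 0.95 to 1.39). The groups did not overlap in either, as in 92.4% of all transcripts with 200 or more counts. The retained-intron transcripts TUBE1-201 and TUBE1-206 had 50 and 37 against 81 and 83 counts (1.06, 0.51 to 1.62), and 17 and 18 against 37 and 48 counts (1.42, 0.59 to 2.32). TUBE1-209, TUBE1-204 and TUBE1-205, with means under 30 counts, had ratios between -0.86 and -0.20.

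Summed over the gene, TUBE1 had 748 counts in each EtOH column and 1377 and 1400 in HgCl2, a log2 ratio of 1.04 (0.91 to 1.17). The make-up of these counts was similar in both groups, since TUBE1-207 held 52.3% in EtOH (48.6 to 55.9%) and 51.4% in HgCl2 (48.7 to 54.0%), and TUBE1-202 held 34.7% (31.3 to 38.2%) and 38.1% (35.5 to 40.7%). Being close to the threshold, TUBE1-207 and TUBE1-201 were under 2-fold in some of the alternatives.

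Gamma-tubulin, which starts new microtubules, is encoded by TUBG1 and TUBG2. TUBG2-203, a retained-intron transcript at chr17:42660260-42661391, had 75 and 60 counts in EtOH and 150 and 164 in HgCl2 (1.36, 0.94 to 1.79). For TUBG1 the retained-intron TUBG1-203 was compared, with 9 and 6 counts in EtOH and 7 and 4 in HgCl2 (-0.30, -2.20 to 1.49), and its coding transcripts have at most 13 own bases. TUBG1 and TUBG2 are near-identical copies, and how reads were split between them was not tested. TUBD1, the delta-tubulin gene, had 3 and 2 counts in EtOH and 1 in each HgCl2 column and was not compared.

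Of the gamma-tubulin complex proteins, which form the ring around gamma-tubulin, 7 transcripts of 4 genes were compared. There were 2 higher and 3 lower, with a median log2 ratio of -0.96. All transcripts gave 18.7% and 29.2%, and those with means under 30 counts 21.1% and 44.1%, so the lower share is near that background. The coding TUBGCP4-208 was the most counted, with 532 and 513 counts in EtOH and 386 and 379 in HgCl2 (-0.31, -0.50 to -0.11). Of its 3738 own bases, 1760 are free of a gene on the opposite strand. TUBGCP2-207, a retained-intron transcript, was at 0 in both EtOH columns and had 25 and 33 counts in HgCl2, which is at least 10.7-fold higher when EtOH is set to 3 counts. TUBGCP3-203 had 8 and 6 counts in EtOH and 2 and 3 in HgCl2 (-1.34, -4.21 to 0.90). TUBGCP6 had at most 3 counts in a column.

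TUBGCP5 gave opposite ratios for a coding and a retained-intron transcript, and its retained-intron transcripts also went apart. The coding TUBGCP5-205 had 65 and 77 counts in EtOH and 36 and 30 in HgCl2, a log2 ratio of -0.96 (-1.60 to -0.35), just under 2-fold. The retained-intron TUBGCP5-203, whose own bases are printed above, had 14 and 17 counts in EtOH and 47 and 45 in HgCl2 (1.71, 0.86 to 2.65). TUBGCP5-203 thus made up 15.2% of the gene's counts in EtOH (8.85 to 23.7%) and 56.4% in HgCl2 (45.0 to 67.4%), and TUBGCP5-205 made up 69.6% (59.7 to 78.3%) and 40.5% (29.8 to 51.9%). Another retained-intron transcript, TUBGCP5-207, with few counts, is named after its values were seen. It held 9.31% in EtOH (4.46 to 16.7%) and 0.61% in HgCl2 (0.0006 to 5.59%). Its log2 ratio of -4.10 was the lowest of all member transcripts compared. Summed over the gene, the counts were 92 and 112 in EtOH and 86 and 77 in HgCl2 (-0.18, -0.62 to 0.26).

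**Figure D3:**
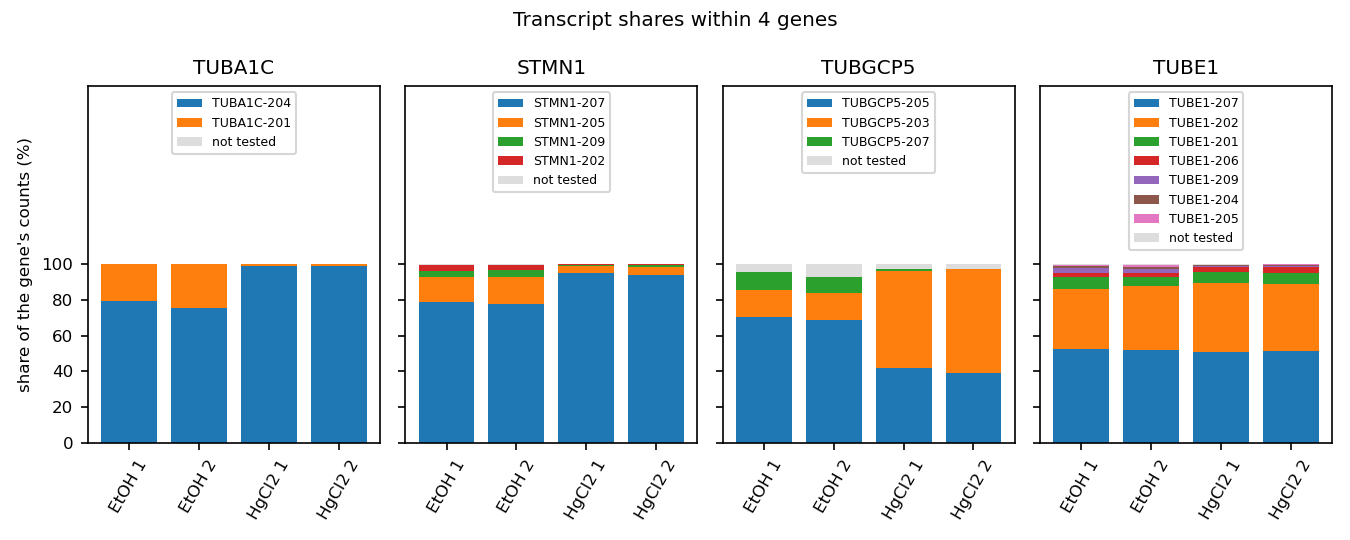
Share of each gene's counts (%) held by each transcript compared, in the 4 columns, for TUBA1C, STMN1, TUBGCP5 and TUBE1, with transcripts not compared in grey. The columns of a group look alike, the shares differ between EtOH and HgCl2 in TUBA1C, STMN1 and TUBGCP5, and TUBE1-207 lies between 51.1 and 52.7% in all columns.

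The tubulin-folding cofactors, which bring alpha- and beta-tubulin together into dimers, gave 4 transcripts, 0 higher and 2 lower, with a median log2 ratio of -0.77. Transcripts with means under 30 counts gave 21.1% higher and 44.1% lower, and all transcripts 18.7% and 29.2%. TBCC-201, a coding transcript of a single-transcript gene, had 259 and 240 counts in EtOH and 222 and 231 in HgCl2 (0.00, -0.26 to 0.27), with a sign that depends on the scaling. The retained-intron TBCD-216 had 10 and 6 counts in EtOH and 4 and 2 in HgCl2 (-1.27, -3.82 to 0.79), which was -1.86 without the first HgCl2 column. TBCE-253, also a retained-intron transcript, had 3 and 5 counts in EtOH and 0 in both HgCl2 columns, at least 1.21-fold lower against 3 counts. TBCA and TBCB had at most 7 counts in a column and were not compared.

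The lattice-binding MAPs, which coat and stabilise microtubules, were seen mainly through MAP1B. MAP1B-201, its long coding transcript, had 2660 and 2665 counts in EtOH and 2200 and 2130 in HgCl2 (-0.15, -0.24 to -0.07). This ratio is close to the median of all transcripts, and its sign changes when the FPKM values are used. MAP7D3-208, from a gene of the MAP7 family that helps recruit kinesin, was at 0 in EtOH and had 11 and 15 counts in HgCl2, at least 4.79-fold higher. Of 3 transcripts compared, 1 was higher and 0 lower (all transcripts 18.7% and 29.2%). MAP1A, MAP1S and MAPT had no count. MAP4, a MAP of many non-neuronal tissues, had 27 and 26 counts in EtOH and 6 and 8 in HgCl2 over all its transcripts (-1.77, -3.22 to -0.54), with none past the filter on FPKM. MAP2, MAP7 and MAP7D1 had at most 6 counts in a column.

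The plus-end proteins gave 8 transcripts, 5 higher and 1 lower, with a median log2 ratio of 1.40, against 18.7% higher and 29.2% lower among all transcripts. CLIP1 alone gave 3 of the 5 higher ones and the lower one. MAPRE1, which encodes the end-binding protein EB1, was the member with the highest deposited FPKM, at 475 and 481 in EtOH and 568 and 563 in HgCl2. MAPRE1-201 is the gene's only listed transcript, with 6685 and 6766 counts in EtOH and 6395 and 6337 in HgCl2, a log2 ratio of 0.06 (0.01 to 0.11) whose sign depends on the scaling. MAPRE2 had no count and MAPRE3 at most 1 in a column.

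The transcripts on the higher side came from CLASP1, CLASP2 and CLIP1, whose products hold growing plus ends. The retained-intron CLASP1-209 had 2 and 1 counts in EtOH and 64 and 70 in HgCl2, a log2 ratio of 5.62 (3.47 to 9.45). Without the first EtOH column it was 6.21. The retained-intron CLASP2-206 had 10 and 11 counts in EtOH and 40 and 54 in HgCl2 (2.31, 1.32 to 3.43). CLIP1-206, a short coding transcript, had 12 and 13 counts in EtOH and 32 and 39 in HgCl2 (1.65, 0.68 to 2.71), and all of its own bases are also covered by a gene on the opposite strand. The retained-intron CLIP1-208, named after its values were seen, was at 0 in EtOH and had 30 and 28 counts in HgCl2, at least 10.7-fold higher. Of the same gene and also named after its values were seen, CLIP1-212 had 6 counts in each EtOH column and 0 and 1 in HgCl2 (-3.44, -13.6 to 0.31). Over all its transcripts CLASP1 had 4 and 3 counts in EtOH and 76 and 85 in HgCl2, so most of its reads in HgCl2 were those of CLASP1-209.

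**Figure D4:**
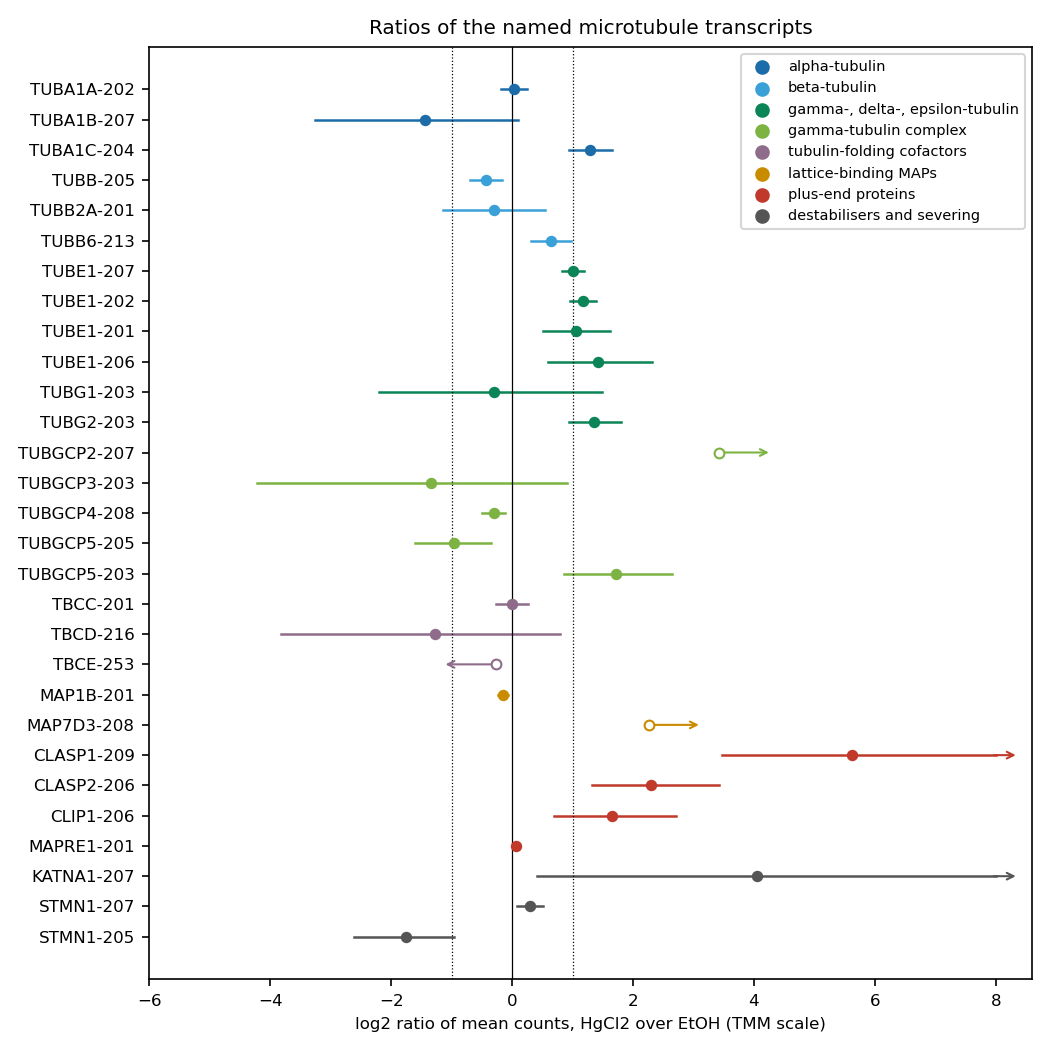
Log2 ratio of HgCl2 over EtOH (TMM scale) for the 29 named member transcripts, coloured by role, with 95% counting intervals as bars. Open points with arrows are bounds against 3 counts for groups at 0, arrows at the right end mark intervals that run past the axis, and dotted lines mark 2-fold. TUBE1, TUBG2, CLASP1, CLASP2 and CLIP1 lie to the right, and MAPRE1-201, MAP1B-201, TBCC-201 and TUBA1A-202 lie near 0.

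Among destabilising and severing proteins, 1 of 5 transcripts was higher and 3 were lower, with a median log2 ratio of -1.76. The background was 18.7% and 29.2% over all transcripts, and 21.1% and 44.1% over those with means under 30 counts. All 3 lower ones were transcripts of STMN1. The most counted, STMN1-207, is listed without a coding sequence and had 346 and 340 counts in EtOH and 378 and 384 in HgCl2 (0.30, 0.08 to 0.51). The coding STMN1-205 had 61 and 66 counts in EtOH and 15 and 19 in HgCl2 (-1.76, -2.62 to -0.97). The share of STMN1-205 in the gene's counts was 14.5% in EtOH (11.4 to 18.2%) and 4.22% in HgCl2 (2.48 to 6.68%), and that of STMN1-207 was 78.5% (74.3 to 82.3%) and 94.7% (92.0 to 96.6%). Summed over the gene, STMN1 had 437 counts in each EtOH column and 397 and 408 in HgCl2 (0.03, -0.17 to 0.23). KATNA1-207, from the gene of the catalytic katanin subunit, is listed without a coding sequence. KATNA1-207 had 1 and 0 counts in EtOH and 6 and 9 in HgCl2 (4.05, 0.41 to 14.2). Its ratio rests on the single read in EtOH, since it was 1.47 without the first EtOH column, with EtOH then at 0 and set to 3 counts, and 3.05 without the second. SPAST was at 0 in EtOH and had 7 and 6 counts in HgCl2, under the filter on FPKM.

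**Figure D5:**
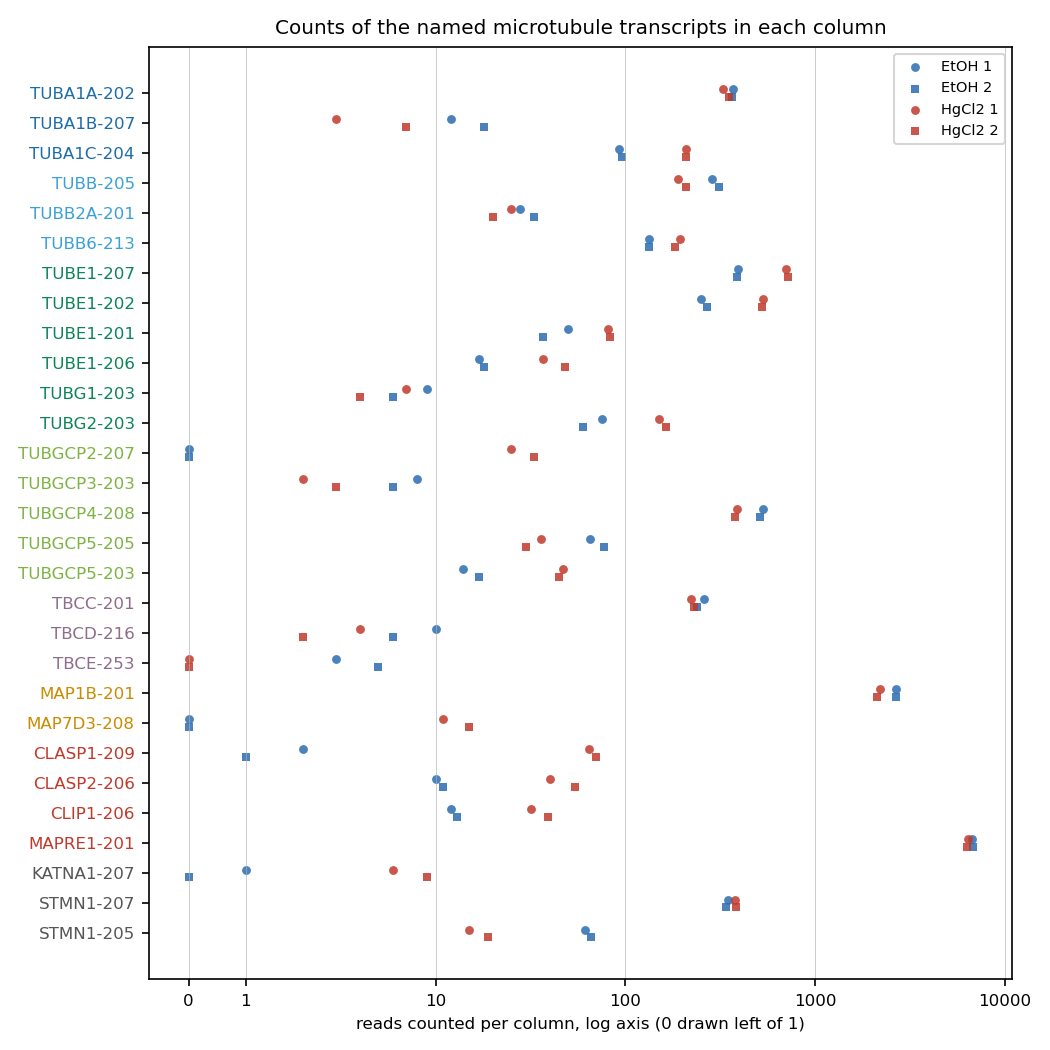
Reads counted for the 29 named member transcripts in each column (log axis, 0 drawn left of 1), with EtOH in blue and HgCl2 in red, circles for the first and squares for the second column of a group. The symbols of a group lie close together, and TUBE1, TUBG2-203, TUBA1C-204 and the CLASP transcripts show the red symbols clear to the right of the blue ones. Groups apart in this way are common. On scaled counts they did not overlap in 89.9% of all transcripts with 30 to under 200 counts and 92.4% with 200 or more.

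Of the other microtubule genes on fixed lists, 46 transcripts of 32 out of 71 genes were compared, of which 6 were higher (13.0%) and 17 lower (37.0%), with a median log2 ratio of -0.28, against 18.7% and 29.2% of all transcripts. The 71 include 8 further tubulin genes, of which none had a transcript to compare. Of the other nucleation factors 0 of 12 were higher and 7 lower (median -1.12), of the enzymes and sensors that modify tubulin 3 of 14 were higher and 5 lower (-0.33), and of further MAPs and severing proteins 3 of 20 were higher and 5 lower (-0.06). Those with 200 or more counts were all within 2-fold. MZT1-201, which encodes a small protein of the gamma-tubulin ring, had 1715 and 1737 counts in EtOH and 1659 and 1637 in HgCl2 (0.08, -0.02 to 0.17). KATNAL1-201, a katanin-like severing enzyme, had 588 and 604 counts in EtOH and 806 and 762 in HgCl2 (0.54, 0.38 to 0.70). TTC5-201, the sensor of newly made tubulin, had 230 and 231 counts in EtOH and 395 and 385 in HgCl2 (0.90, 0.66 to 1.14).

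Of the 42 member genes, 7 had no count in any column (MAP1A, MAP1S, MAPRE2, MAPT, TUBA4A, TUBB2B and TUBB4B), and 11 had counts but no transcript to compare (MAP2, MAP4, MAP7, MAP7D1, MAPRE3, SPAST, TBCA, TBCB, TUBB3, TUBD1 and TUBGCP6). For these genes no transcript could be compared at this depth and way of counting, which does not show that their messages were absent.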

How the data were processed

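Tables of the whole series were used, with 2 columns for each group, assigned by their names. For the deposited counts the authors trimmed reads (Trim Galore 0.6.5), aligned them to GRCh38 (STAR 2.5.4b) and counted them on Ensembl 98 transcripts (Rsubread 2.0.1), with counting options, strand included, that are not given in the sources used here. The authors derived the deposited FPKM from these counts (DESeq2 1.26.0). Gene names, classes and positions came from GENCODE 44, a later release, which held 223558 of the 227368 identifiers.

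Members and lists were chosen with earlier results of these data known. Transcripts with a mean FPKM above 1 in a group were kept (17547), and those at or under 3 counts in both groups were dropped, which left 16462. The log2 ratio is that of the mean counts on the TMM scale of edgeR 4.0.16 (R 4.3.3). A group at 0 in both columns was set to 3 counts. The 95% intervals are Clopper-Pearson intervals of the mean counts, extended to means that are not whole. PCR copies are not independent molecules, so they cover counting error only. The ratio was tested on simulated counts before use. Alternatives used size factors of DESeq2 1.42.0, total counts, other filters, single columns, log2 of FPKM with a pseudocount, counts summed per gene and a minimum of 150 own bases in a run.

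All members are named, with values for the most counted transcript of each gene and for those with a mean of 30 or more counts past 2-fold. Other lists are given by their most counted transcript and by transcripts with 200 or more counts past 2-fold. Computation used Python 3.11.15 with numpy, pandas, scipy and matplotlib.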

Additional observations from a re-analysis of the deposited data

How the results depend on the processing

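No paired analysis was possible because the columns of each group counted as 1 sample and no result came from a test. Of 47 transcripts, 16 were higher and 12 lower in HgCl2. Where every column had to hold 10 counts or more, 6 and 2 of 23 were (26.1% and 8.70%, against 11.1% and 12.7% of all transcripts under that filter). For counts summed per gene, 8 and 2 of 24 genes were (33.3% and 8.33%, against 14.01% and 25.2%). Without a filter 19 of 66 were lower (28.8%, against 30.7%), and with a run of at least 150 own bases 7 of 39 (17.9%, against 28.1%). The median log2 ratio was -0.15 for the 47 member transcripts. Over the members that each setting kept, it was -0.0306 with 10 counts or more in every column, 0.0605 for counts summed per gene and 0.00390 with the minimum own run. It was 0.0224 on log2(FPKM + 1) and 0.0229 on log2(FPKM + 0.1), and it lay between -0.156 and -0.0284 without one column. The most counted transcript of each gene was picked anew among those that a setting kept, so a filter also changes the set. The median of these, 0.05 for the 24 in the main setting, was -0.13 with 10 counts or more in every column and 0.20 without a filter. On log2(FPKM + 1) and log2(FPKM + 0.1) it was 0.22. The median of all transcripts lay between -0.23 and 0.01 over the settings.

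Of the 29 named transcripts, 17 were past 2-fold. Of these, 11 remained so under each alternative that gave a single transcript another ratio (8 to 10 a transcript: scaling, filters, single columns and FPKM). No ratio past 2-fold changed sign. Among the 11, TUBGCP2-207, MAP7D3-208, CLASP1-209 and KATNA1-207 had no ratio with 10 counts or more required in every column. That filter therefore could not count against them, and they had entered the comparison only through HgCl2. Under at least 1 alternative TUBA1B-207 reached -0.85, TUBE1-207 0.84, TUBE1-202 0.997, TUBE1-201 0.86, TUBGCP3-203 -0.56 and TBCD-216 -0.58, all short of 2-fold. TUBGCP5-205 reached -1.14 and TBCE-253 -3.91, both past it. Without 1 column, TUBA1B-207, TUBE1-207, TUBE1-201, TUBGCP5-205 and TBCD-216 changed side. Summed per gene, TUBA1C (0.94), STMN1 (0.03), TUBGCP5 (-0.18), TBCD (-0.91), TUBB2A (0.05) and TUBB6 (0.50) were under 2-fold although a transcript of each was past it. The cause was not tested. Most member genes are limited by counts under 30.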
